A study of Homo sapiens with 36 samples.

Results

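The genes described here are GATA2, GATA3, GATA4, GATA5 and GATA6, which encode GATA transcription factors. They were chosen by name and are 5 of the 20136 protein-coding genes of the annotation. The data used here come from DU145, a prostate cancer cell line, and compare cells with a control short hairpin RNA (shCTR) with cells that carry shPHF19L4, a hairpin against the long isoform of PHF19. ChIP-seq peak lists from 2 replicates each were used for PHF19, EZH2 and SUZ12 in shCTR cells, and for H3K27me3 and MTF2 in shCTR and shPHF19L4 cells, which makes 14 lists. A further 5 tables give read concentrations of both replicates together, for PHF19 against its input and for the other 4 targets in shPHF19L4 against shCTR. A single hairpin against the long isoform in a single cell line limits the model, and no expression value was used, so the cell line's label could not be set against marker genes.

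GATA factors bind the short DNA motif they are named after through zinc fingers and direct cell fate. GATA2 and GATA3 are best known from blood, where GATA3 directs T cells, and GATA3 also from the epithelium of breast and bladder, while GATA4, GATA5 and GATA6 are known from heart, gut and other endoderm. Polycomb repressive complex 2, with EZH2 as its enzyme and SUZ12 as a core subunit, places H3K27me3 on such developmental genes where they are silent, and PHF19 and MTF2 are related accessory subunits that help bring it to DNA rich in CpG.

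A gene's interval reached from 2.5 kb before its start to its end and was widened by 10 kb on each side, and it was 36.3 kb for GATA2, 52.3 kb for GATA3, 106 kb for GATA4, 35.0 kb for GATA5 and 55.4 kb for GATA6. All positions are in GRCh37 (hg19) unless another build is named. In the longer annotated forms of GATA3 and GATA4 the gene starts far upstream of the canonical transcript, by 9310 bp for GATA3 and by 27243 bp for GATA4, whereas these starts are the same base for the other 3 genes. The lists differ widely in size. They hold from 232 peaks (SUZ12, shCTR replicate 2) to 57026 peaks (H3K27me3, shPHF19L4 replicate 2), and their depth is unknown. Counts of GATA genes with a peak are therefore given beside the share of all protein-coding genes in the same lists. Lengths and numbers of peaks of single genes are mostly given without such a comparison. The part of depth and of list size in any difference between replicates or conditions was not tested.

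The GATA genes split into 4 that carry PHF19 and H3K27me3 and 1, GATA2, that carries almost none of either. GATA2 did have MTF2 peaks in replicate 2, over a larger share of its interval than at 68.1% of genes in shCTR and 84.5% in shPHF19L4. A PHF19 peak of both replicates lay in the interval of GATA3, GATA4, GATA5 and GATA6, which is 4 of 5 against 4.68% of all protein-coding genes. EZH2 peaks of both replicates lay at 3 of the 5, GATA3, GATA4 and GATA5, against 3.02% of genes, and at GATA6 EZH2 was called in replicate 2 alone. At a MACS score of at least 100, EZH2 in both replicates was left at GATA3, 1 of the 5 against 1.64% of genes. SUZ12 was called in both replicates at GATA3 alone, 1 of 5 against 0.293% of genes. GATA5 had a SUZ12 peak in replicate 2 and none in replicate 1, so that on replicate 2 alone the count is 2 of 5, against 1.24% of genes.

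H3K27me3 covered the same 4 genes in both conditions. In both shCTR replicates it was called at 4 of the 5, against 18.2% of genes, and in both shPHF19L4 replicates again at 4, GATA3, GATA4, GATA5 and GATA6, against 25.5%. MTF2 peaks of both shCTR replicates lay at 3 of the 5 (7.32% of genes), and of both shPHF19L4 replicates at 4 (13.3%). The gene that makes the difference is GATA6, whose interval had no MTF2 peak in shCTR replicate 1. That list holds 2516 peaks against 32254 in shCTR replicate 2, where GATA6 had an MTF2 peak of score 2395. MTF2 replicate 2 has a peak in the interval of 59.7% of genes in shCTR, and on that list alone all 5 GATA genes are called. Over all lists, GATA3 had a peak in all 14, which 0.283% of genes have. GATA5 had one in 13, GATA4 in 12, GATA6 in 10 and GATA2 in 3, and the 3 genes with at least 12 compare with 2.48% of genes.

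**Figure D1:**
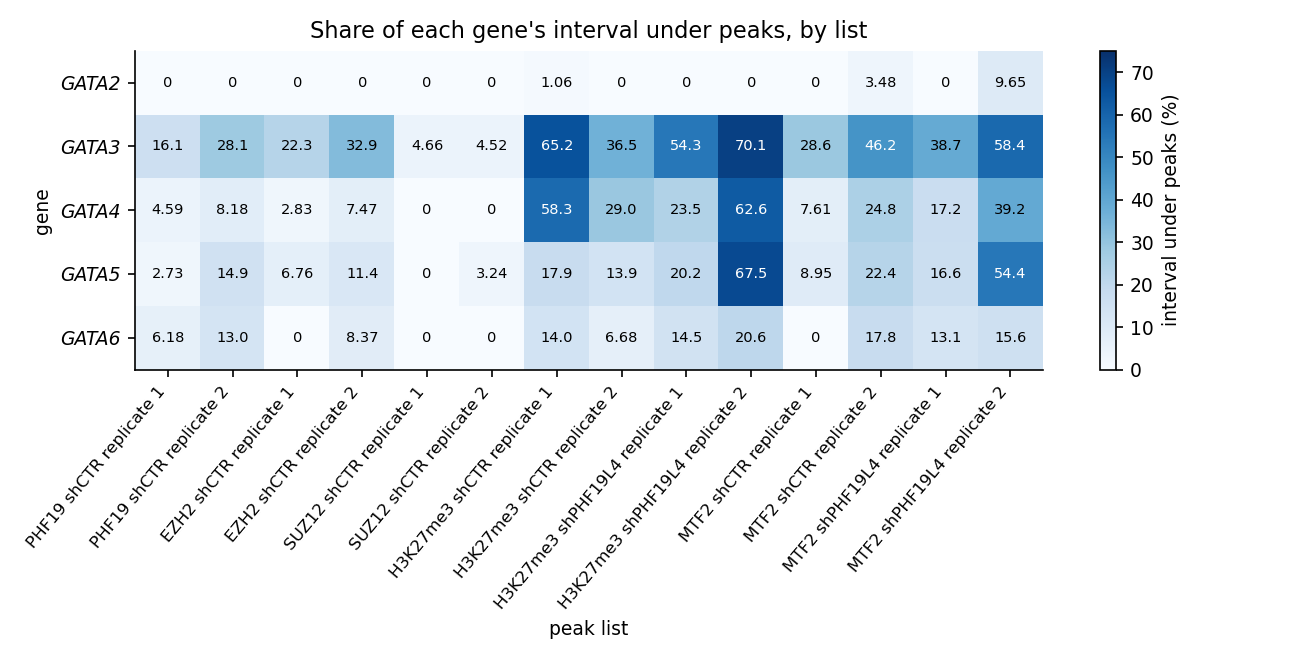
Percent of each gene's interval that lay under peaks, with 1 row for each gene and 1 column for each list; the number in a cell is the percent. GATA3 has a value above 0 in every column, up to 70.1% in H3K27me3 of shPHF19L4 replicate 2, and GATA2 in 3 columns, up to 9.65%.

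GATA2 (ENSG00000179348), a factor of blood stem and progenitor cells, lies on the minus strand of chromosome 3 from 128198270 to 128212044. No PHF19, EZH2 or SUZ12 list had a peak in its interval, as for 67.3% of genes. Its H3K27me3 was a single shCTR peak in replicate 1, of score 58.2, that reached 385 bp into the upstream edge of the interval, with its near end at -12116 bp from the start. MTF2 was called in replicate 2 alone, inside the gene: a peak from 2703 to 3964 bp after the start in shCTR, with a score of 141, and in shPHF19L4 a peak from 2691 to 5204 bp, with a score of 382, and another from 5517 to 6501 bp, with a score of 52.3. None of these peaks reached the start of GATA2, and 1 of them, the shPHF19L4 peak with a score of 382, covered the start of the antisense RNA GATA2-AS1. The study used a stretch of GATA2 as a negative control site in ChIP-qPCR, and it is shown because it can be placed beside the peaks. The amplicon, chr3:128211080-128211274 on the plus strand, lies 770 to 964 bp after the start, in no annotated exon of GATA2 or GATA2-AS1, and each of its primers, in capitals at the ends, has 1 match in the genome. It holds 16 CpG in 195 bp, had no peak in any list, and lay 1727 bp from the nearest peak, which was of MTF2 in shPHF19L4 replicate 2.
GATA2 ChIP-qPCR amplicon: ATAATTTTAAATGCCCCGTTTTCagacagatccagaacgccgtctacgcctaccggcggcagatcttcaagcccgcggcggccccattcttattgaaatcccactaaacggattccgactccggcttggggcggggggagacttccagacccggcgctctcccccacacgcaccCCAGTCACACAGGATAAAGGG
The promoter of GATA2, from RefSeq on GRCh38.p14 (chr3:128493152-128493451, minus strand, which is 128211995 to 128212294 in GRCh37), holds 300 bases around the start, most of them before it. It is shown with every CpG in capitals, because it is rich in CpG and carried no peak.
GATA2 promoter: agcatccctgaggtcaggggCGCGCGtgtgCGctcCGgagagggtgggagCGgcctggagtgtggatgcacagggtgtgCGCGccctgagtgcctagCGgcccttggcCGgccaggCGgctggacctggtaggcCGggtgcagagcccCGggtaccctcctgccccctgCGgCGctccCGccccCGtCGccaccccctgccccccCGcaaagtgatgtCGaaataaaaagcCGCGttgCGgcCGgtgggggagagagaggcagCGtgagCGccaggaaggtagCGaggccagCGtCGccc
This promoter holds 29 CpG, more than 75.8% of the 35116 promoters in the RefSeq table, whose median is 14, and no list had a peak on it. A later promoter of GATA2, which starts 4671 bp inside the gene and holds 22 CpG, lay under a peak in 1 list.

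GATA3 (ENSG00000107485), a factor of T cells and of luminal epithelium, lies on the plus strand of chromosome 10 from 8087341 to 8117161 and was the GATA gene with the most complete coverage. PHF19 peaks covered 8.42 kb of its interval in replicate 1 and 14.7 kb in replicate 2, and EZH2 peaks 11.6 kb and 17.2 kb. Each of these was a larger share of the interval than at 99.7% or more of genes. SUZ12 had 1 peak of 2.44 kb in replicate 1 and 1 of 2.36 kb in replicate 2, and neither reached within 2.5 kb of either start, so that a count of SUZ12 peaks in both replicates limited to the 2.5 kb on each side of the annotated start gives 0 of the 5 genes, against 0.189% of all genes. All 14 lists shared a segment of 2127 bp, chr10:8090963-8093089, between the annotated gene start, which 12 lists covered, and the canonical start, which 6 covered. The peaks thus ran upstream of the canonical start and over the first part of the longer gene form, and fewer lists reached the later part of the gene. The middle 300 bases of that segment, chr10:8091877-8092176 on the plus strand, are shown because they are the stretch that every protein and the mark had in common, with each CpG in capitals.
GATA3 shared segment: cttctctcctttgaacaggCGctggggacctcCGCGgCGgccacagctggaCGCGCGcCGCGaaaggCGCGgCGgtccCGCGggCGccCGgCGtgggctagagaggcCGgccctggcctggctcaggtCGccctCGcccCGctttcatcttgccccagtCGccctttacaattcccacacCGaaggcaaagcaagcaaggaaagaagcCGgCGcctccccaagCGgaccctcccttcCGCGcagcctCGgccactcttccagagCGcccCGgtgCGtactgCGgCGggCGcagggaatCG
They hold 36 CpG. For comparison, the promoter of the canonical transcript (RefSeq, GRCh38.p14, chr10:8054438-8054737, plus strand, which is 8096401 to 8096700 in GRCh37), again with CpG in capitals, lay wholly under peaks of 6 lists.
GATA3 canonical promoter: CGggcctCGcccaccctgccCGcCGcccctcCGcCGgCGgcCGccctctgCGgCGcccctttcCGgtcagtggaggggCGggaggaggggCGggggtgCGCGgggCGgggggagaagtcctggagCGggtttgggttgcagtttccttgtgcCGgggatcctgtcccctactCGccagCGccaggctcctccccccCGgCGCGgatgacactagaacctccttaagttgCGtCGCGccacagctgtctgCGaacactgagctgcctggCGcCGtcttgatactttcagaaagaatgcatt
It holds 29 CpG, the same number as the GATA2 promoter that had no peak. RefSeq gives 6 promoters for GATA3, and the lists that touched them were 12, 14, 14, 8, 6 and 4 in order along the gene. Their CpG numbers in that order were 16, 18, 16, 36, 29 and 5. The 300 bases of the segment shared by all 14 lists held 36, as many as the richest of these promoters. A relation between CpG and the number of lists was not tested.

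GATA4 (ENSG00000136574), a factor of the developing heart and of endoderm, lies on the plus strand of chromosome 8 from 11534468 to 11617511, and its peaks were many and scattered over much of a long gene. It had 96 peaks over all lists, more than GATA3 with 55, GATA5 with 33, GATA6 with 18 and GATA2 with 4, in an interval that is also the longest. PHF19 peaks covered 4.84 kb in replicate 1 and 8.64 kb in replicate 2, and EZH2 peaks 2.99 kb and 7.89 kb. No SUZ12 peak was called. The segment under the most lists, 11 of 14, was 1385 bp long and lay from -133 to 1251 bp relative to the canonical start, while 2 lists covered the annotated gene start. The H3K27me3 list of shPHF19L4 replicate 1 was the list other than SUZ12 without it, with its nearest peak 6691 bp after the canonical start. Up to 10 lists also overlapped between the starts of GATA4, so its canonical start led by 1 list.

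GATA5 (ENSG00000130700), a factor of endocardium and gut, lies on the minus strand of chromosome 20 from 61038553 to 61051051, and 12 of the 14 lists had a peak over its start. PHF19 peaks covered 0.957 kb in replicate 1 and 5.20 kb in replicate 2, EZH2 peaks 2.37 kb and 4.0 kb, and the SUZ12 peak of replicate 2 1.13 kb with a score of 58.2. The segment under the most lists, 13 of 14, was 957 bp long, chr20:61051100-61052056, from -1005 to -49 bp relative to the start. Peaks farther away came from replicate 2 lists, most of them from H3K27me3 and MTF2 in shPHF19L4, where 67.5% and 54.4% of the interval lay under peaks. The list without the shared segment was SUZ12 replicate 1.

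GATA6 (ENSG00000141448), a factor of endoderm and heart, lies on the plus strand of chromosome 18 from 19749550 to 19782491, and most lists had a peak before its start, over the antisense RNA GATA6-AS1. PHF19 peaks covered 3.43 kb in replicate 1 and 7.21 kb in replicate 2. EZH2 had 1 peak, of 4.64 kb in replicate 2, and SUZ12 none. Some PHF19, H3K27me3 and MTF2 peaks of replicate 2 also lay inside or behind the gene, away from GATA6-AS1. The segment under the most lists, 10 of 14, was 2767 bp long, chr18:19746473-19749239, from -3077 to -311 bp relative to the start, which 6 lists covered. The promoters of GATA6 and of GATA6-AS1 are both shown, since they lie on opposite strands, with the RefSeq start of GATA6-AS1 at -621 bp from the start of GATA6, and differ in the lists that cover them. Both are from RefSeq on GRCh38.p14, with CpG in capitals: GATA6 is chr18:22169339-22169638 on the plus strand (19749300 to 19749599 in GRCh37), and GATA6-AS1 is chr18:22168919-22169218 on the minus strand (19748880 to 19749179 in GRCh37).
GATA6 promoter: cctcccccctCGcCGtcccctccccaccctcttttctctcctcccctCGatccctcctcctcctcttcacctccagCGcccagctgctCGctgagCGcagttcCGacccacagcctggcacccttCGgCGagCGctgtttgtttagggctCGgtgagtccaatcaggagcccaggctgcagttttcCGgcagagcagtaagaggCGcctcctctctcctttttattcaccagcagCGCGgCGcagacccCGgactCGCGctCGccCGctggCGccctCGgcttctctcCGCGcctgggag
GATA6-AS1 promoter: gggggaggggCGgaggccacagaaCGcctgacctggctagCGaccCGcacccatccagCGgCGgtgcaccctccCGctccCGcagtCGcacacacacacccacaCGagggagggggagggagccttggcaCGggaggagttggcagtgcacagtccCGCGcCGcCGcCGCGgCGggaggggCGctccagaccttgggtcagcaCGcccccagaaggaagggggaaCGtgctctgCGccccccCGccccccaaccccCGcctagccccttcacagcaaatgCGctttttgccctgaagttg
Each holds 25 CpG, more than 68.0% of promoters. The promoter of GATA6-AS1 lay wholly under peaks of 10 lists, and that of GATA6 under peaks of 5, with 8 that touched it.

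Motifs were searched in all 9 promoters that RefSeq gives for GATA2, GATA3 and GATA6, as a description of the letters alone. GATA4 and GATA5 have no entry. GATAA, the letters of the GATA motif, occurred on either strand in the last promoter of GATA3 alone, with 1 match, and is found in 22.7% of all promoters. GCGC, which reads the same on both strands and overlaps CpG, occurred 9 times in the GATA6 promoter, 7 times in the first GATA2 promoter and 6 times in the canonical GATA3 promoter. It occurred 2 times in the later GATA2 promoter, and 1, 3, 3, 3 and 0 times in the other GATA3 promoters in order. Of all promoters, 57.2% hold it at least once.

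**Figure D2:**
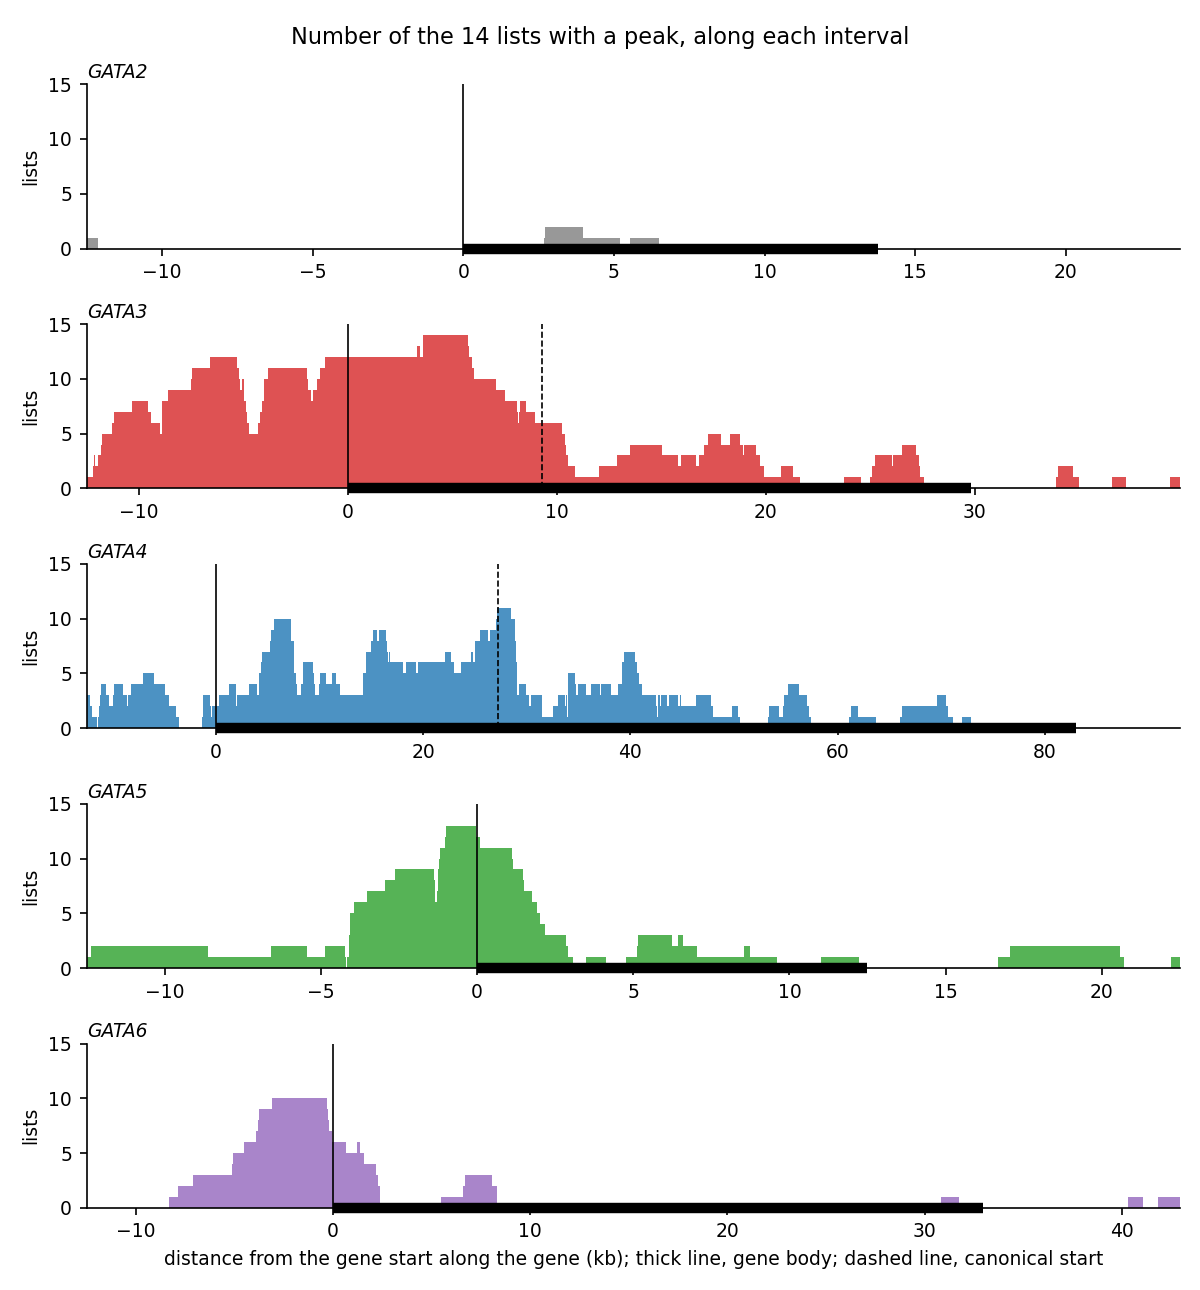
Number of the 14 lists with a peak at each position, against distance from the annotated gene start in kb, for 1 gene in each panel; the thick line is the gene, the solid vertical line its start and the dashed line the canonical start of GATA3 and GATA4. GATA3 reaches 14 lists between its starts, GATA4 11 at its canonical start, GATA5 13 and GATA6 10 before the start, and GATA2 2 inside the gene.

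CpG in the 2.5 kb on each side of the annotated start numbered 84.2 per kb at GATA6, which is more than at 99.7% of genes, 73.0 per kb at GATA5 (99.0%), 46.2 at GATA2 (87.1%), 32.8 at GATA3 (61.9%) and 22.6 at GATA4 (34.9%), where the median gene has 28.2. At the canonical start it was 62.2 per kb for GATA3 and 49.2 for GATA4. GATA2 was above the median gene in CpG without a PHF19 peak. GATA6, with the richest start, had a peak anywhere in its interval in fewer lists than GATA3, GATA4 or GATA5, whose intervals differ in length. GATA6 also had the highest PHF19 log2 read level per kb among these genes, 6.76. A relation of CpG to peaks was not tested. At the annotated start itself 6 lists covered GATA6 and 2 covered GATA4. In the PHF19 regions of the 4 other genes CpG ranged from 16.4 per kb, in the region farthest upstream of GATA3, to 99.0 per kb at the start of GATA5, and their median was 52.1 against 51.4 over all PHF19 regions.

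How much PHF19 the GATA genes carried was read from the authors' table of PHF19 against input, which lists 7 regions at these genes and at least 1 at 4 of the 5, against 5.95% of genes. The values are mean log2 read concentrations of both replicates together, so no error can be given, and levels are compared per kb of region. PHF19 was densest at GATA6, in the region from -3835 to -101 bp relative to its start, with a level of 6.76 per kb against 4.31 in input, above 97.3% of listed regions in level. That input level was also the highest of the 7 regions, and by difference from input a GATA3 region came first. The broad GATA3 region over the gene start, 10.2 kb wide, had 5.91 per kb against 3.63 in input, above 86.3% of regions. The 5 other regions, upstream of GATA3 and at GATA4 and GATA5, had similar levels, from 4.82 to 5.22 per kb, all below the table's median level of 5.24. The difference from input was 2.85, 1.90 and 2.28 for the GATA3 regions in genome order, 1.81 and 1.52 for GATA4, 1.25 for GATA5 and 2.45 for GATA6. The median over these was 1.90, and over all 1245 listed regions 1.58. GATA5 had the smallest difference from input of the 7 regions, and its region had the most CpG per kb, but a relation between them was not tested.

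The comparison of shPHF19L4 with shCTR was read from the other 4 tables, which hold only regions under the authors' thresholds. The EZH2 regions of the GATA genes were 2.66 to 21.9 kb wide, against a median of 3063 bp over all listed EZH2 regions. Their MTF2 regions were 1.70 to 14.6 kb wide, against a median of 2842 bp. The part of region width in the differences was not tested. Nearly all listed regions were higher in shPHF19L4: 2407 of 2408 for EZH2, 508 of 508 for SUZ12 and 2539 of 2546 for MTF2. A count of genes listed as higher is therefore close to a count of genes with a listed region. EZH2 was listed as higher in shPHF19L4 at 4 of the 5 genes, against 12.4% of genes, and as lower at none, against 0.00497%. The difference in EZH2 concentration was 1.03 at GATA3, in a region of 21.9 kb that takes in both of its starts. At GATA4 it was 0.51, 1.26 and 1.06 in 3 regions along the gene, and 1.54% of all listed regions were lower than the first of these. It was 1.08 at GATA5 and 0.75 at GATA6. The median of the 6 regions was 1.04, which is positive as listed but lies below the 1.16 of all 2408 regions, a difference of -0.12, and 1 of the 6 was above that median. In level, EZH2 went from 5.29 to 6.32 per kb at GATA3, from 5.04 to 6.12 at GATA5 and from 5.05 to 5.80 at GATA6, whereas the GATA4 regions began lower, between 4.32 and 4.61 per kb. GATA6, which had no EZH2 peak in 1 of the shCTR lists, thus had as high an EZH2 level in shCTR as GATA5.

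SUZ12 was listed as higher at 2 of the 5, against 3.17% of genes. Within 2.5 kb of the canonical start it was listed at 1, GATA5. The difference was 0.75 at GATA3, from 4.90 to 5.65 per kb, and 0.78 at GATA5, from 4.56 to 5.34 per kb. These are close to each other and both below the table's median of 0.96. H3K27me3 had no listed region at any of the 5, against 5.16% of genes with a region listed as higher, so no level can be given for the mark. A count of 0 of 5 is near that share.

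MTF2, the related accessory subunit, was listed as higher in shPHF19L4 at 4 of the 5, against 11.5% of genes, and as lower at none, against 0.0199%. Its difference was 0.98, 0.91 and 0.71 in the 3 GATA3 regions, 0.55, 0.91 and 0.84 in the 3 GATA4 regions, 0.75 at GATA5 and 0.41 at GATA6. The median of the 8 was 0.79, positive as listed but below the 0.87 of all 2546 regions, a difference of -0.08, and 3 of the 8 were above it. In shCTR the main GATA3 region already had 7.19 per kb, above 95% of listed regions, and it went to 7.90. GATA5 went from 6.63 to 7.38 and GATA6 from 6.34 to 6.75. GATA6 had the highest PHF19 level of the GATA genes, though not the largest PHF19 difference from input. It had the smallest MTF2 difference among them, and 1.14% of listed regions were lower. Whether its PHF19 level and its MTF2 difference are related was not tested.

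**Figure D3:**
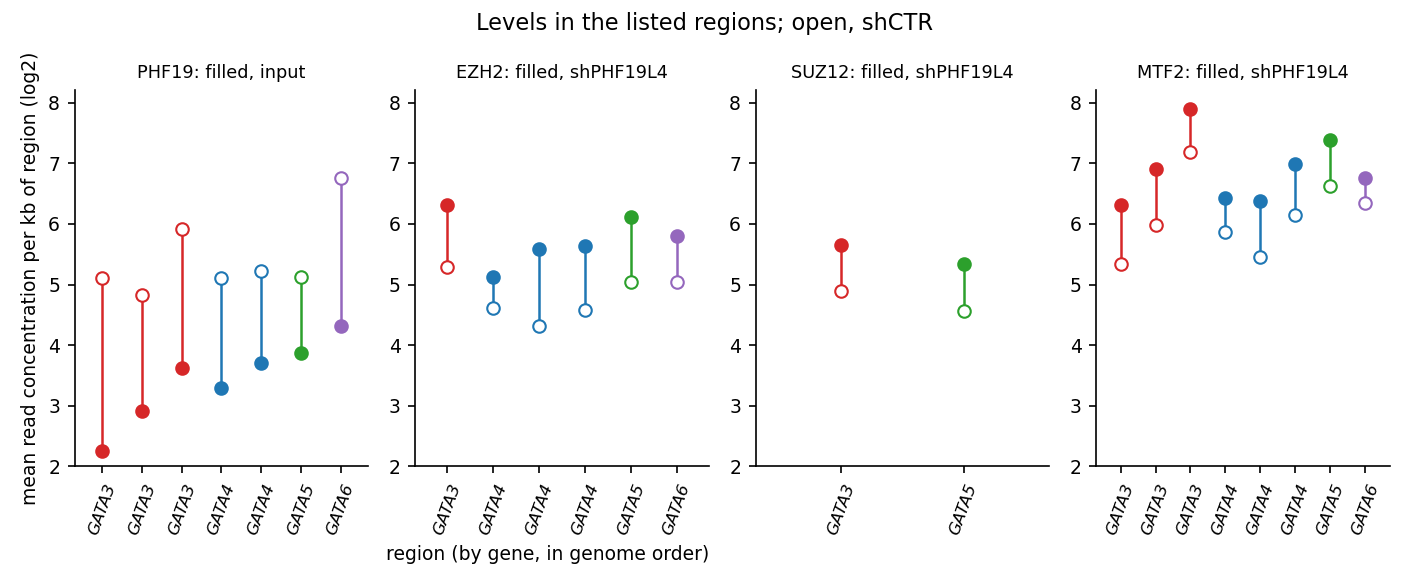
Mean log2 read concentration per kb in each listed region, 1 panel for each table; open points are shCTR and filled points are input for PHF19 and shPHF19L4 for the other tables, joined by a line. PHF19 lies highest at GATA6, at 6.76 in shCTR, and MTF2 at the main GATA3 region, at 7.90 in shPHF19L4.

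**Figure D4:**
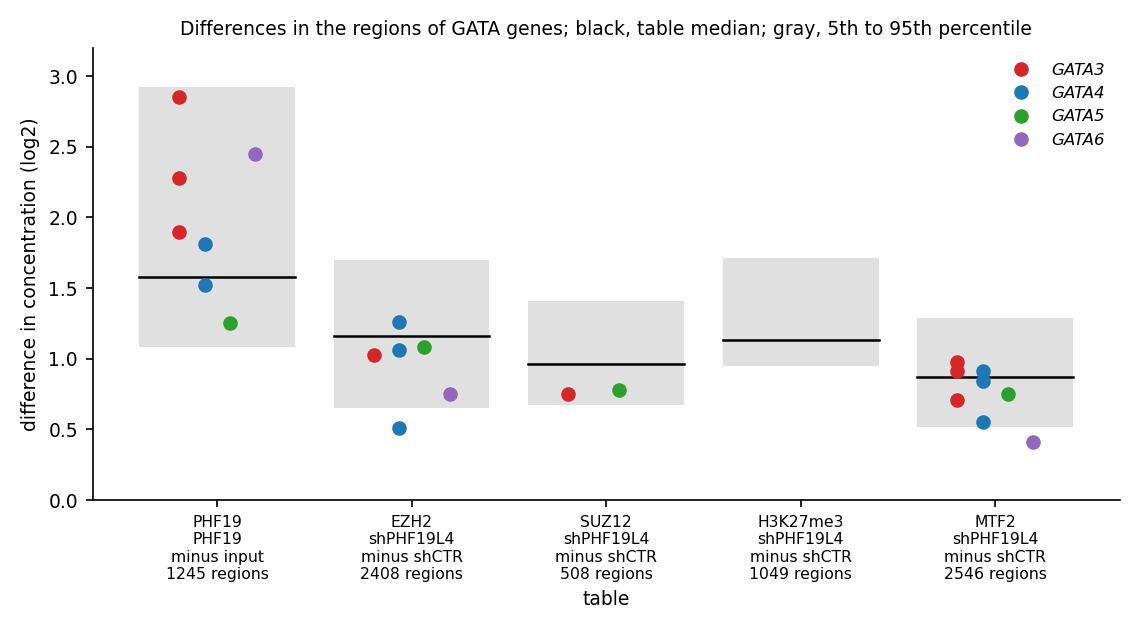
Log2 difference in concentration of each listed region of a GATA gene, coloured by gene, for each of the 5 tables; the black line is the median and the gray band the 5th to 95th percentile of all regions in the table. Most EZH2 and MTF2 points and both SUZ12 points lie above 0 but under the black line, while 5 of 7 PHF19 points lie above it, and H3K27me3 has none.

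The length under H3K27me3 peaks differed between conditions in opposite directions in the 2 replicates for GATA3, GATA4 and the sum over the 5 genes, and in the same direction for GATA5 and GATA6. In replicate 1, GATA3 had 34.1 kb in shCTR and 28.4 kb in shPHF19L4, and GATA4 had 61.5 kb and 24.8 kb. In replicate 2, GATA3 had 19.1 kb in shCTR and 36.7 kb in shPHF19L4, and GATA4 had 30.6 kb and 66.1 kb. Both genes thus lay lower in shPHF19L4 in replicate 1 and higher in replicate 2. GATA5 had 6.28 kb and 7.08 kb in replicate 1 and 4.85 kb and 23.6 kb in replicate 2. GATA6 had 7.78 kb and 8.04 kb in replicate 1 and 3.70 kb and 11.4 kb in replicate 2. At GATA5 and GATA6 the shPHF19L4 length was the longer in both replicates, by little in replicate 1. A longer H3K27me3 length in shPHF19L4 was thus found at 2 of the 5 in replicate 1, against 12.5% of genes, and at 4 in replicate 2, against 38.8%. Among genes with the mark in both conditions the share with a longer length was 41.5% in replicate 1 and 98.9% in replicate 2, so that in replicate 2 the GATA genes did as nearly every marked gene did. A shorter length was found at 3 in replicate 1, GATA2, GATA3 and GATA4, against 17.0% of genes. Summed over the 5, the length was 110 kb in shCTR and 68.3 kb in shPHF19L4 in replicate 1, a ratio of 0.621, and 58.3 kb and 138 kb in replicate 2, a ratio of 2.37, and the median ratio of genes with the mark in both conditions was 0.955 and 3.15. The replicates thus differ in direction for the sum over these genes and for that median alike. A sum gives long genes more weight, which a median of ratios does not. Most of the gap in the sum of replicate 1 came from GATA4, with a ratio of 0.403. The ratio there was 0.834 at GATA3, 1.13 at GATA5 and 1.03 at GATA6. By number of peaks, the ratio over the 5 genes was 0.889 in replicate 1 and 1.23 in replicate 2.

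The length under MTF2 peaks was longer in shPHF19L4 at most of these genes in both replicates. GATA3 had 15.0 kb in shCTR and 20.3 kb in shPHF19L4 in replicate 1, and 24.2 kb and 30.6 kb in replicate 2. GATA4 had 8.03 kb and 18.2 kb in replicate 1, and 26.1 kb and 41.4 kb in replicate 2. GATA5 had 3.13 kb and 5.82 kb in replicate 1, and 7.86 kb and 19.0 kb in replicate 2. The 3 genes GATA3, GATA4 and GATA5 thus had longer stretches under MTF2 in both replicates, with the values of replicate 2 above those of replicate 1. GATA6 had 0 and 7.28 kb in replicate 1, but 9.89 kb and 8.68 kb in replicate 2, so that its replicates went opposite ways. A longer MTF2 length was found at 4 of the 5 in replicate 1, against 12.7% of genes, and at 4 in replicate 2, GATA2 among them with 1.26 kb and 3.50 kb, against 42.0%, while GATA6 was the 1 gene with a shorter length there, against 28.0%. Among genes with MTF2 in both conditions the share with a longer length was 85.4% in replicate 1 and 63.4% in replicate 2, so a longer length was common among such genes. The MTF2 length summed over the 5 in shPHF19L4 was 1.97 times that in shCTR for replicate 1 and 1.49 times for replicate 2, and the median ratio of genes with MTF2 in both conditions was 1.32 and 1.15. The sum for replicate 1 includes GATA6, which had no MTF2 peak in shCTR there. These lengths were not tested. An exact permutation of 2 lists against 2 cannot give a two-sided p below 0.33.

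**Figure D5:**
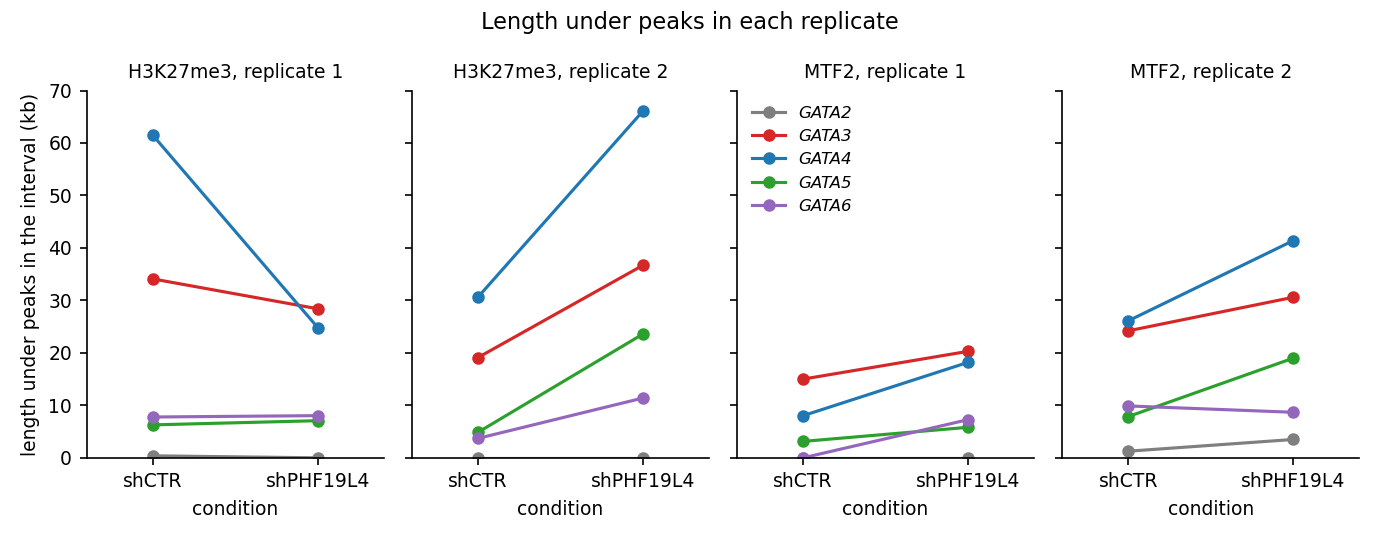
Length under peaks in each gene's interval, in kb, in shCTR and shPHF19L4, 1 panel for each replicate of H3K27me3 and MTF2 and 1 line for each gene. GATA4 goes from 61.5 kb to 24.8 kb in H3K27me3 replicate 1 and from 30.6 kb to 66.1 kb in replicate 2, whereas its MTF2 lines slope upward in both.

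Several neighbouring genes lay under peaks too. GATA3-AS1, the antisense RNA of GATA3, had a peak over its body in all 14 lists and over its start in 8, and the non-coding gene ENSG00000232638 beside it in 10 over its start. GATA6-AS1 had 10 lists over its body and 6 over its start in GENCODE, which lies 289 bp inside GATA6 and is not the RefSeq start shown with the promoter, and GATA2-AS1 had 2 and 1. The short non-coding gene ENSG00000272050 before GATA5 had 9 lists over its start. Farther along, DNAJB8-AS1 behind GATA2 had 5 lists over its body, all outside the interval of GATA2, and ENSG00000264012, ENSG00000266283 and RNU6-702P along GATA6 had 3, 1 and 0. Behind GATA4, the protein-coding genes C8orf49 and NEIL2, a DNA repair enzyme, had 0.

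The protein-coding genes whose covered share of their interval over the 14 lists was most like that of a GATA gene were MECR, LHX5 and HSPA12B for GATA3, with r of 0.970, 0.970 and 0.965. They were WNT3A, ENSG00000259164 and TMEM63C for GATA4, with r of 0.985, 0.980 and 0.975. For GATA5 they were CCDC61, ADRA2C and TPGS1, with r of 0.976, 0.969 and 0.967, and for GATA6 TM9SF3, RGCC and MLXIPL, with r of 0.971, 0.954 and 0.950. The 14 points share cells and antibodies and differ in list size, and the median r of the candidate genes was already 0.827 for GATA3, 0.835 for GATA4, 0.747 for GATA5 and 0.741 for GATA6. GATA2, with fewer than 6 lists, was not compared.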

How the data were processed

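ChIP-seq peaks and read concentrations in DU145 cells were taken from deposited files, 14 of them peak lists and 5 differential binding tables. The authors mapped reads with Bowtie to hg19, with fly chromosomes added where a sample held spike-in, and ran MACS replicate by replicate, and the deposited score of a peak is the MACS score, except that PHF19 replicate 1 gives tags and MTF2 replicate 1 gives positions alone. The log2 concentrations are means of both replicates made by the authors with DiffBind, and the tables hold only regions under their thresholds. The 4 tables of shPHF19L4 open with a pair of header lines that name their other concentration column after input and after the knock-down; it was read as shPHF19L4, and it is above shCTR in 2407 of 2408 EZH2 regions. Their fold, p and FDR columns hold the authors' own comparison and were not used. The methods name fly spike-in scaling for plots, and none for DiffBind or the peak lists. The paper calls the ChIP-seq replicates biological and independent, and depth is unknown.

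The members and all gene lists were chosen with earlier results of these data known. The genes named are the 5 members, genes that overlap their intervals, 27 relatives and partners, and the 3 protein-coding genes most like each member with a peak in at least 6 lists, among genes with an interval of 0.5 to 2 times its length, by Pearson correlation of the covered share. Genes came from GENCODE release 44 mapped to GRCh37, and an overlap of 1 bp counted. Differences are the concentration in shPHF19L4 minus that in shCTR, or PHF19 minus input, and levels per kb subtract the log2 of the region's width in kb. The overlap code was tested on simulated data. Promoters came from RefSeq (GRCh38.p14) and were placed in GRCh37 by exact match of their sequence. Python 3.11.15, numpy 2.4.6 and matplotlib 3.10.9 were used. All results are descriptions without tests. Input was used only as the concentration in the PHF19 table. Input and IgG libraries themselves, RNA-seq, and EZH2, SUZ12 and PHF19 peaks of shPHF19L4 cells were not analysed here.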

Additional observations from a re-analysis of the deposited data

How the results depend on the processing

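Of 99 values recomputed with other settings, 82 stayed the same by the limits used, which were 1.5 times for a count, 2 decimals for a median and 1 SD of both replicates for a ratio. Counts within these limits could lose genes. Within 2.5 kb of either start, genes with PHF19 in both replicates numbered 3 in place of 4, and with EZH2 2 in place of 3. At the annotated start GATA4 was lost from both counts, and at the canonical start GATA3. No paired analysis was possible for the concentrations, because their tables hold no value per replicate, and the covered lengths were compared within replicates without a test. Genes with SUZ12 in both replicates numbered 0 in place of 1 within 2.5 kb of the annotated start, and 0 within 2.5 kb of the canonical start. In either replicate they numbered 2, and with a replicate left out from 1 to 2. Genes with EZH2 in both replicates numbered 1 in place of 3 at a MACS score of at least 100. For PHF19 and MTF2 that threshold was applied to replicate 2 alone, since their replicate 1 lists hold no MACS score. Genes with MTF2 in shCTR numbered 5 in place of 3 in either replicate, and from 3 to 5 with a replicate left out. Genes with a listed SUZ12 region numbered 1 in place of 2 near the canonical start. The median EZH2 difference was 1.03 near the annotated start, and the median SUZ12 difference 0.78 near the canonical start. The median MTF2 difference was 0.73 without the 10 kb, 0.71 near the annotated start and 0.73 near the canonical start. With the table's median subtracted, the medians turned negative, to -0.12 for EZH2, -0.19 for SUZ12 and -0.08 for MTF2, since the median over the members' regions lies below that of each of these tables. By number of peaks, the MTF2 ratio of replicate 1 was 1.5 in place of 1.97, and the H3K27me3 ratios were 0.889 in place of 0.621 in replicate 1 and 1.23 in place of 2.37 in replicate 2, within an SD that is wide because these replicates are opposed. The settings with the canonical start were chosen after seeing the data. The causes of the other shifts were not tested. H3K27me3 had no listed region and so no median, and unknown depth limits all counts of peaks.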

Other observations

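Of 27 relatives and partners of the GATA factors, 12 had a listed EZH2 region (12.4% of all genes had one higher in shPHF19L4), 13 a listed MTF2 region (11.5%), 9 a PHF19 region (5.95%), 4 a SUZ12 region (3.17%) and 5 an H3K27me3 region (5.16%). ESR1, the estrogen receptor that works with GATA3 in breast epithelium, had a peak in all 14 lists, as GATA3 did, with an EZH2 difference of 1.10, a SUZ12 difference of 0.74 and an MTF2 difference of 0.88. HAND1, a heart factor, had a peak in 13 lists and FOXA2, an endoderm factor, in 12. GATA1, a factor of red blood cells, and TBX5 and GATAD2A had a peak in none.

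ZFPM1 encodes FOG1, the cofactor of GATA1, and had the largest EZH2 difference of the 27 genes, 2.23, in a region where SUZ12 differed by 1.76, H3K27me3 by 1.67 and MTF2 by 1.58. Another ZFPM1 region had differences of 1.26 for EZH2 and 0.80 for MTF2. Its relative ZFPM2, the cofactor of GATA4, had differences of 1.29 for EZH2, 1.00 for H3K27me3 and 1.02 for MTF2, and TRPS1, an atypical GATA family repressor, had 1.59, 1.32 and 1.10. All 3 had a listed H3K27me3 region, as had HAND2 with 1.37 and FOXA2 with 1.06. The 3 genes with GATA-type zinc fingers in chromatin complexes, GATAD1, GATAD2A and GATAD2B, had no listed region in any of the 5 tables.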
